A study of Mus musculus with 21 samples.

Results

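The CCN genes encode a small family of secreted matricellular proteins. The 5 members described here were taken by their symbols from a table of 24091 genes: Nov (CCN3), Ctgf (CCN2), Cyr61 (CCN1), Wisp1 (CCN4) and Wisp2 (CCN5). All 5 were among the 12192 genes tested, those that averaged 1 TPM or more over the libraries. TPM is a transcript level normalised to transcript length and to a fixed library total. Expression was measured by RNA-seq in C3H/10T1/2, a mouse mesenchymal cell line that can be led towards fat, cartilage, bone or muscle. The cells carried wild type histone H2B (WT) or H2B with glutamate E71, E76 or E113 replaced by lysine, which reverses the charge (E71K, E76K, E113K), or by glutamine, which removes it (E71Q, E76Q, E113Q). Each of the 7 groups had 3 libraries, 21 in all, and the design text calls the 3 independent biological replicates. WT H2B was the control, and no other treatment, time point or genotype is named. The labels do not state the promoter of the H2B construct, whether the groups are single clones, or how much endogenous H2B the cells kept, and the values do not separate H2B from a construct and H2B from the cells' own genes. H2B glutamates E76 and E113 lie on the histone surface, E76 at the contact with H4 and E113 in the acidic patch, and E76K is known as a recurrent histone mutation of tumours.

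CCN proteins are built from a row of modules shared with insulin-like growth factor binding proteins, von Willebrand factor and thrombospondin, and most end in a cystine knot that Wisp2 lacks. They act outside the cell by binding integrins, heparan sulphate proteoglycans and growth factors, and so tune adhesion, matrix deposition and signalling by TGF-beta, BMP and Wnt. In mesenchymal cells, Cyr61 and Ctgf are immediate early genes and textbook targets of YAP and TAZ with TEAD factors and of SRF, Wisp1 and Wisp2 were named as genes induced by Wnt1, and Nov is known as an inhibitor of BMP signalling and of bone formation.

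In mouse build GRCm38.p6 (RefSeq), Nov (Entrez 18133) lies on chromosome 15 from 54745910 to 54753762 and Wisp1 (Entrez 22402) on the same chromosome from 66891369 to 66923201. Ctgf (Entrez 14219) lies on chromosome 10 from 24595442 to 24598683, Cyr61 (Entrez 16007) on chromosome 3 from 145646971 to 145649985, and Wisp2 (Entrez 22403) on chromosome 2 from 163820752 to 163833146. The table of RefSeq promoter windows used here held 1 of the 5 members, Cyr61. Its window runs from 250 bases before to 50 bases after the start site, at chr3:145649936-145650235 on the minus strand of GRCm38.p6. It is shown because Cyr61 is a standard TEAD target, and the capitals mark the single match to the TEAD motif GGAATG, here on the reverse strand as CATTCC, at bases 148 to 153 of the window:

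Cyr61: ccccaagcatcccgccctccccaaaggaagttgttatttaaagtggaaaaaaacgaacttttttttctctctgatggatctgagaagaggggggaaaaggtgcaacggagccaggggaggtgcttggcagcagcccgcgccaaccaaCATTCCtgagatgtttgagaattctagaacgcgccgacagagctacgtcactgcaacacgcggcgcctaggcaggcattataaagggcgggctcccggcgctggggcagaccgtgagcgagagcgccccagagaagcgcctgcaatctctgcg

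The match begins 103 bases before the start site. Both strands were searched, and 14.7% of 32851 promoter windows of the same length hold GGAATG. Neither the CArG box, the motif of SRF (1.63% of windows), nor CTTTGAT, the motif of TCF/LEF (3.73% of windows), was found in these letters. The motifs do not overlap one another here, and a match is a description of the sequence only.

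TPM values keep no read total, so the depth of each library is unknown. Mir6236, a single annotated gene, took 2.19% to 30.6% of the TPM of a library, with the highest shares in E71K replicate 2 and E71Q replicate 1. The 14 mesenchymal markers summed to 13572 to 21668 TPM in every library, although Thy1 was listed at 0 in 1. Markers of epithelial cells summed to at most 13.1 TPM, of blood cells to 22.8, mostly Cd14, of endothelial cells to 4.84 and of skeletal muscle to 8.59. Cldn4 and Cd3e were listed at 0 in all 21 libraries. In bulk RNA, fewer cells of a type and less RNA per cell cannot be told apart. In each of 4 groups, 1 library stood apart from its mates across all genes: E71K replicate 3, E71Q replicate 1, E76K replicate 3 and E113Q replicate 3. Member results that change without them are given both ways, and all 6 comparisons with WT use the same 3 WT libraries.

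Nov carried the widest difference of the family. It stood near 34 TPM in WT and rose to between 533 and 2510 TPM in E76K, E113K and E113Q, while it fell in E71Q. The other members moved less and each in its own set of mutants: Ctgf rose in E71K and E76Q, Cyr61 in E71Q, E76Q and E113K, Wisp2 in E76K and E76Q, and Wisp1 fell in E71K, E71Q and E113Q. Differences are on the log2(TPM + 1) scale, with the standard error (SE) and Benjamini-Hochberg adjusted p of limma over the 12192 genes, and a gene is called at an adjusted p below 0.05.

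**Figure D1:**
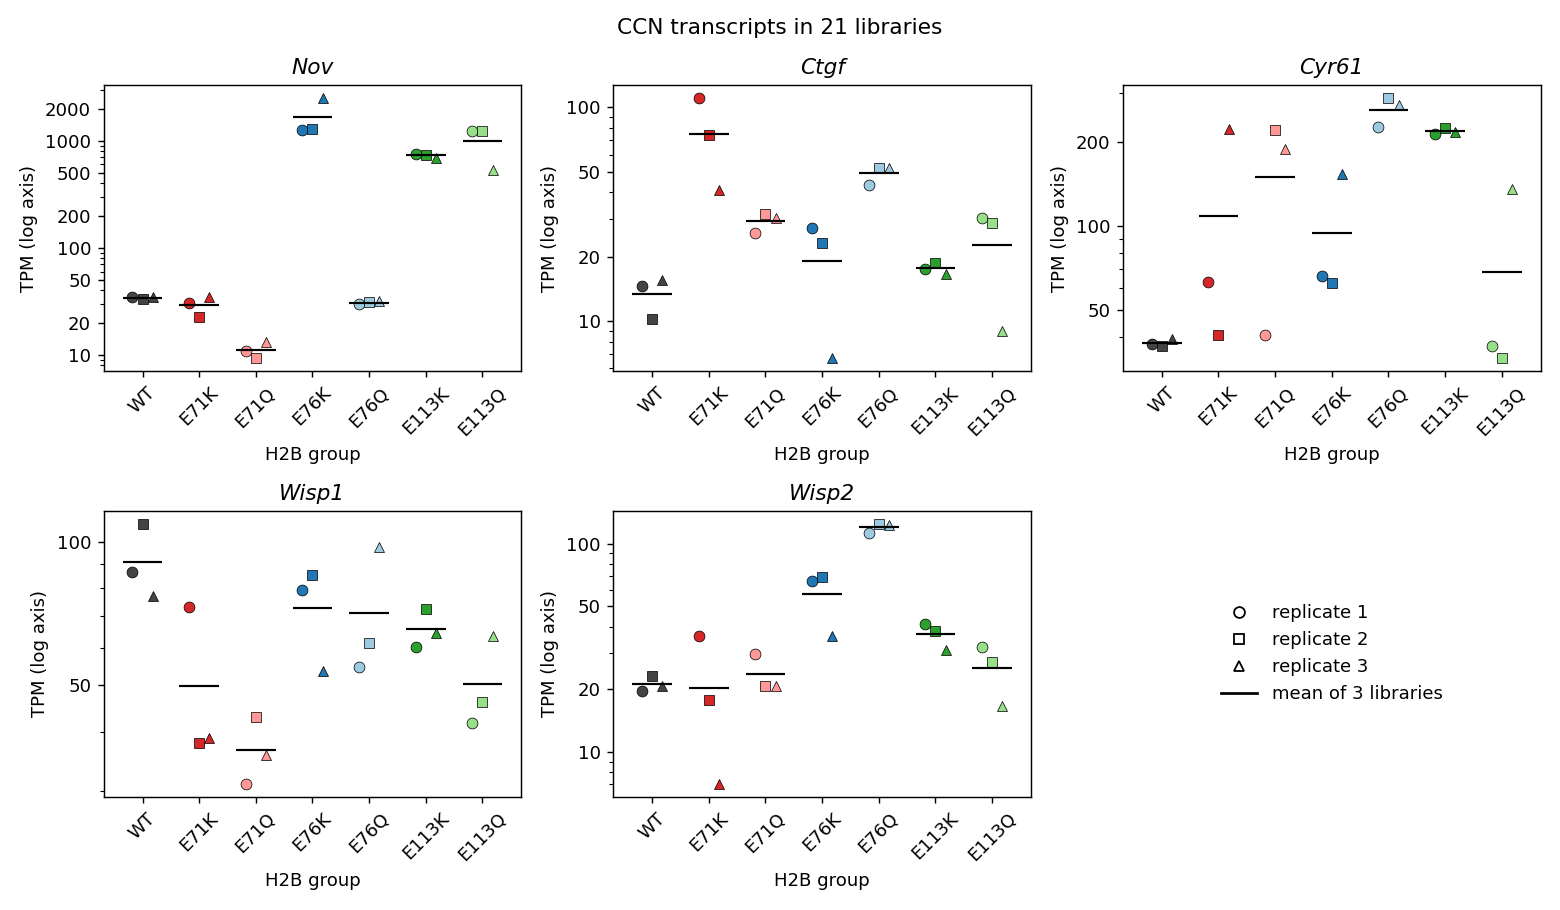
TPM (log axis) of the 5 CCN genes in each of the 21 libraries, by H2B group, with marker shape for the replicate and a line for the mean of 3. Nov sits between 533 and 2510 TPM in all 9 E76K, E113K and E113Q libraries and at or below 34.8 TPM in the other 12, while Cyr61 spreads widely within E71K, E71Q, E76K and E113Q.

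For each mutant against WT, the number of the 5 members called is read beside the share of all tested genes called. In E71K 2 of 5 were called, against 26.7% of all tested genes, and in E71Q 3 of 5, against 44.2%. In E76K 2 of 5 were called, against 33.2%, and in E76Q 3 of 5, against 44.3%. In E113K 2 of 5 were called, against 51% of all tested genes, and in E113Q 2 of 5, against 30.6%. With 5 genes a share near the background is no result about the family, and the counts are given as a description. Leaving out the 4 libraries that stood apart leaves less spread by construction, and 4 of 5 were called in E71K (40.5% of tested genes), 4 in E71Q (59.4%), 4 in E76K (44%), 3 in E76Q (59.9%), 4 in E113K (64.6%) and 3 in E113Q (44.4%). All 5 members passed the moderated F test for any difference among the 7 groups, as did 77.1% of tested genes, with adjusted p of 5.95e-13 for Nov, 7.87e-05 for Wisp2, 0.00133 for Ctgf, 0.00454 for Wisp1 and 0.00768 for Cyr61. The range of the 7 group means set the members apart more than the count did. It was 7.05 on the log2 scale for Nov, wider than in 99.9% of tested genes, against a median of 0.87 over all tested genes. It was 2.76 for Wisp2, 2.74 for Cyr61, 2.31 for Ctgf and 1.28 for Wisp1, wider than in 92.4%, 92.2%, 88.8% and 69.6% of tested genes.

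**Figure D2:**
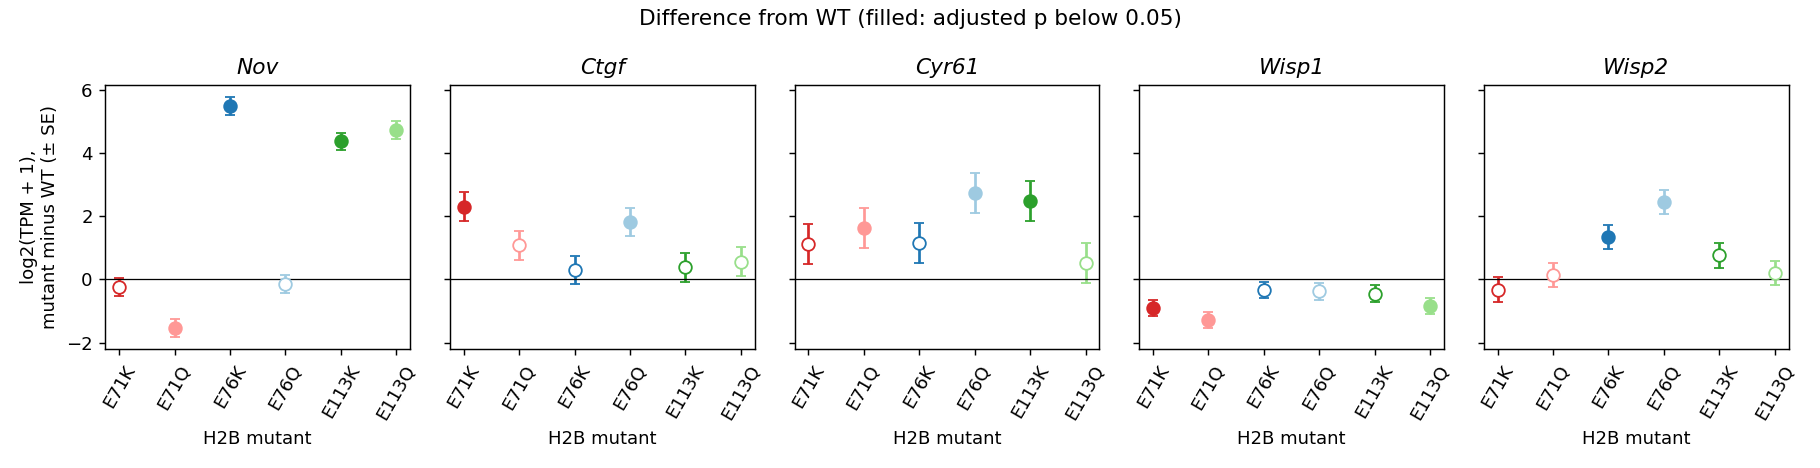
Difference of each mutant from WT in log2(TPM + 1), with SE bars, for the 5 CCN genes; filled points passed an adjusted p below 0.05. Nov reaches 5.50 in E76K, 4.73 in E113Q and 4.37 in E113K, and the other 4 genes stay between -1.28 and 2.74.

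Nov, known as an inhibitor of BMP signalling, measured 34.6, 33.3 and 34.8 TPM in the WT libraries (34.2 ± 0.843 TPM, mean ± SD, n = 3). The E76K libraries held 1259, 1277 and 2510 TPM (1682 ± 717, n = 3), the E113K libraries 757, 742 and 688 (729 ± 36.4, n = 3) and the E113Q libraries 1231, 1244 and 533 (1003 ± 407, n = 3). None of these 9 libraries overlapped the WT range. Nov rose by 5.50 on the log2 scale in E76K, 45.2-fold (SE 0.28, limma adjusted p = 8.4e-11), by 4.73 in E113Q, 26.6-fold (SE 0.28, adjusted p = 6.81e-10), and by 4.37 in E113K, 20.7-fold (SE 0.28, adjusted p = 1.65e-09). The remaining mutants did not share this level. The E71Q libraries held 10.9, 9.28 and 13.3 TPM (11.2 ± 2.01, n = 3), all below WT, and Nov fell by 1.55 on the log2 scale (adjusted p = 0.000302). The E71K libraries held 30.2, 22.4 and 34.8 TPM, overlapping WT, with a difference of -0.25 (adjusted p = 0.571), or -0.38 without the 4 libraries that stood apart (adjusted p = 0.0294). That fit left out the E71K library with the highest Nov and kept replicate 2, at 22.4 TPM. Mir6236 took 30.6% of the TPM of replicate 2, against 3.77% to 7.26% in WT, which lowers its other values. The E76Q libraries held 29.7, 30.9 and 31.8 TPM, just under the WT range, with a difference of -0.15 (adjusted p = 0.700). Those 4 calls passed with each of the 21 libraries left out in turn, and the E76K difference was 5.17 without the 4 libraries that stood apart.

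In the order of mean levels, Nov ran from E76K through E113Q and E113K to WT, E76Q, E71K and E71Q. Only the steps from E113K to WT and from E71K to E71Q passed the test, although the libraries of E76K and E113Q, and of WT and E76Q, did not overlap either. The step from E76K to E113Q was 0.77 (adjusted p = 0.0718) and from E113Q to E113K 0.36 (adjusted p = 0.371). Nov thus spanned 9.28 to 2510 TPM over the libraries, and its mean over all 21 was higher than that of 97.8% of tested genes.

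Ctgf, a matrix and fibrosis factor induced by TGF-beta and YAP, measured 14.5, 10.2 and 15.5 TPM in WT (13.4 ± 2.79, n = 3). The E71K libraries held 111, 73.9 and 41.0 TPM (75.2 ± 34.9, n = 3) and the E76Q libraries 43.5, 52.2 and 51.9 (49.2 ± 4.93, n = 3), all above WT. Ctgf rose by 2.31 on the log2 scale in E71K (SE 0.45, limma adjusted p = 0.000805) and by 1.82 in E76Q (SE 0.45, adjusted p = 0.00364), and both calls passed in all 21 fits that left out a library. The E71Q libraries held 25.7, 31.7 and 30.3 TPM, above every WT library, yet the difference of 1.08 missed the threshold (adjusted p = 0.0608). It was called when Mir6236 was left out and TPM rescaled (adjusted p = 0.0363) and without the 4 libraries that stood apart (1.17, adjusted p = 7.27e-05). E113K, at 17.5, 18.6 and 16.7 TPM, also lay just above WT, by 0.39 (adjusted p = 0.496, or 0.0446 without the 4 libraries). In E76K and E113Q the third library fell away from the others: the E76K libraries held 27.4, 23.2 and 6.68 TPM and the E113Q libraries 30.3, 28.8 and 8.99, so both ranges enclosed the WT values. Their differences were 0.29 (adjusted p = 0.652) and 0.57 (adjusted p = 0.365), and without the 4 libraries that stood apart they were 0.88 (adjusted p = 0.0012) and 1.10 (adjusted p = 0.000213). In E71Q, E76K and E113Q the library left out was the lowest in Ctgf. That choice by itself raised these differences and narrowed the spread. Ordered by mean, Ctgf ran from E71K through E76Q, E71Q, E113Q, E76K and E113K to WT. No step in that order passed the test, although the libraries of E76Q and E71Q, and of E113K and WT, did not overlap.

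Cyr61, an immediate early gene of adhesion and vessel growth whose promoter window is printed above, was tight in 3 groups and scattered in 4. The WT libraries held 37.7, 37.2 and 39.3 TPM (38.1 ± 1.10, n = 3), the E76Q libraries 225, 287 and 269.9 (261 ± 32.0, n = 3) and the E113K libraries 213, 223 and 217 (218 ± 5.28, n = 3). Cyr61 rose by 2.74 on the log2 scale in E76Q (SE 0.63, limma adjusted p = 0.00221) and by 2.49 in E113K (SE 0.63, adjusted p = 0.00362), in all 21 fits that left out a library. The scattered groups each mixed low and high libraries. The E71K libraries held 63.2, 40.6 and 223 TPM, the E71Q libraries 40.7, 219.6 and 189, the E76K libraries 66.1, 62.5 and 154, and the E113Q libraries 37.1, 33.6 and 135. All of the E71K, E71Q and E76K libraries were above WT, and 2 of the 3 E113Q libraries were not. The E71Q difference of 1.62 was called (adjusted p = 0.0463), but in only 6 of the 21 fits that left out a library, and it was 2.39 without E71Q replicate 1. It was also lost with no filter on low values (adjusted p = 0.0724), with robust moderation (adjusted p = 0.0677) and in a fit of only those 6 libraries (adjusted p = 0.0960). The differences of 1.11 in E71K (adjusted p = 0.221), 1.16 in E76K (adjusted p = 0.171) and 0.53 in E113Q (adjusted p = 0.563) were not called. With the libraries that stood apart left out, Cyr61 differed by 0.40 in E71K (adjusted p = 0.0457), 2.39 in E71Q (adjusted p = 1.78e-08), 0.74 in E76K (adjusted p = 0.00136) and -0.11 in E113Q (adjusted p = 0.601). By mean level Cyr61 ran from E76Q through E113K, E71Q, E71K, E76K and E113Q to WT. No step in that order passed the test, although the libraries of E76Q and E113K did not overlap.

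The scatter of Cyr61 ran along a difference between libraries that involved many genes. No library lay between 66.1 and 135 TPM: 11 libraries held 135 to 287 TPM and 10 held 33.6 to 66.1. In the 11 higher libraries the sum of 22 immediate early genes (Cyr61 not included) was 804 to 1326 TPM, and in the 10 lower ones 504 to 746 TPM. The sum of 16 dividing cell markers was 459 to 1016 TPM in the higher libraries and 812 to 2069 TPM in the lower ones. On the axis used to set the 4 libraries apart, the higher libraries lay at 11.4 to 26.1 and the lower ones at -30.7 to -3.72. Leaving out those 4 was therefore not independent of Cyr61. Where a group split, its members moved as follows. The third library of E71K, E76K and E113Q had the highest Cyr61 of its group and the lowest Ctgf and Wisp2, and its dividing cell markers summed to 1016, 838 and 684 TPM against 1473 to 2069, 1574 to 1580 and 1644 to 1719 TPM in its mates. E71Q replicate 1 had the lowest Cyr61 and Ctgf of its group and the highest Wisp2. Its dividing cell markers, at 812 TPM, lay between those of its mates, at 732 and 830 TPM. Mir6236 took 21.2% of the TPM of E71Q replicate 1, against 9.90% and 5.47% in its mates, which lowers its other values. Its rank for Ctgf and for the marker sum depends on that scaling. The median log2(TPM + 1) of the markers was highest in replicate 1, at 5.33 against 4.72 and 5.04. Nov did not follow 1 direction, being highest in the third library of E76K and lowest in the third of E113Q. The part of cell division, of immediate early expression or of the library in these values was not tested.

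**Figure D3:**
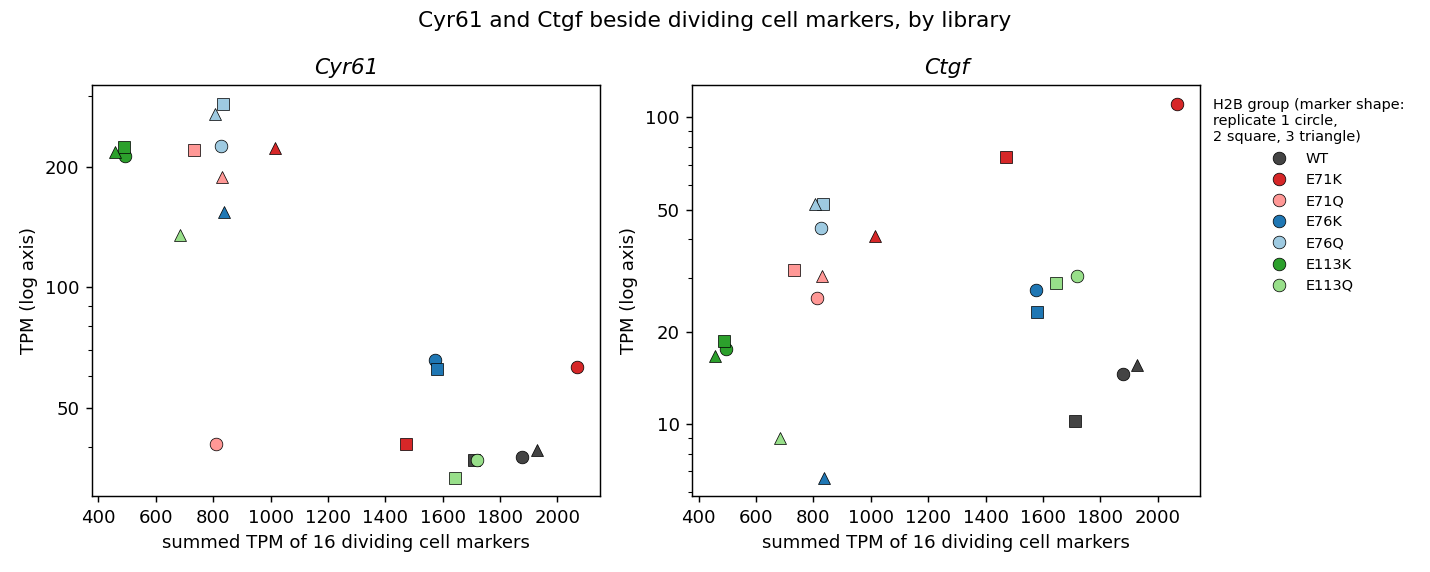
TPM of Cyr61 and Ctgf (log axes) against the summed TPM of 16 dividing cell markers, 1 point per library, coloured by H2B group with marker shape for the replicate. All 10 libraries with Cyr61 of 66.1 TPM or less, except E71Q replicate 1, have marker sums of at least 1473 TPM, whereas Ctgf is lowest in E76K replicate 3 at 6.68 TPM and highest in E71K replicate 1 at 111 TPM.

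Wisp1, a Wnt1-induced member linked to bone formation and tissue repair, was the only one of the 5 whose highest mean was in WT. The WT libraries held 86.4, 109 and 76.9 TPM (90.8 ± 16.6, n = 3). The E71Q libraries held 31.1, 43.0 and 35.8 TPM (36.6 ± 6.001, n = 3), all below WT, and Wisp1 fell by 1.28 on the log2 scale (SE 0.26, limma adjusted p = 0.000777), in all 21 fits that left out a library. The E71K libraries held 72.9, 37.9 and 38.9 TPM (49.9 ± 19.9, n = 3) and the E113Q libraries 41.6, 46.2 and 63.5 (50.5 ± 11.6, n = 3), again all below WT. Wisp1 fell by 0.90 in E71K (adjusted p = 0.0151) and by 0.84 in E113Q (adjusted p = 0.0206). Both calls were lost when certain single libraries were left out. For E71K these were WT replicate 2 (adjusted p = 0.0744), E71K replicate 2 (adjusted p = 0.0553) and E71K replicate 3 (adjusted p = 0.0607), and the call was also lost in a fit of only those 6 libraries (adjusted p = 0.117). For E113Q they were WT replicate 2 (adjusted p = 0.0915), E113Q replicate 1 (adjusted p = 0.0806) and E113Q replicate 2 (adjusted p = 0.0621). The remaining mutants overlapped WT or lay just below it. The E76K libraries held 79.5, 85.3 and 53.7 TPM, the E76Q libraries 54.6, 61.3 and 97.5, and the E113K libraries 60.3, 72.3 and 64.4. Their differences were -0.33, -0.38 and -0.45, with adjusted p of 0.352, 0.250 and 0.160. The order of means was WT, E76K, E76Q, E113K, E113Q, E71K and E71Q, where no step passed the test and the libraries of all neighbours overlapped.

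Wisp2, the member without the cystine knot, known from fibroblasts and early fat cells, measured 19.7, 23.1 and 20.7 TPM in WT (21.2 ± 1.76, n = 3). The E76Q libraries held 112, 125 and 122 TPM (119.8 ± 6.46, n = 3) and the E76K libraries 66.2, 69.4 and 36.1 (57.2 ± 18.4, n = 3), all above WT. Wisp2 rose by 2.45 on the log2 scale in E76Q (SE 0.38, limma adjusted p = 7.36e-05), in all 21 fits that left out a library. It rose by 1.34 in E76K (SE 0.38, adjusted p = 0.0130), a call lost only without E76K replicate 2 (1.17, adjusted p = 0.0553). E113K, at 41.4, 38.0 and 31.0 TPM, lay above every WT library, but its difference of 0.76 missed the threshold (adjusted p = 0.107, or 0.00298 without the 4 libraries that stood apart). The E113Q libraries held 31.9, 27.0 and 16.7 TPM, the E71Q libraries 29.4, 20.8 and 20.7, and the E71K libraries 36.0, 17.8 and 7.03. These 3 groups overlapped WT, with differences of 0.20, 0.13 and -0.32 and adjusted p of 0.740, 0.811 and 0.591. The E71K difference turned to 0.25 without the 4 libraries (adjusted p = 0.368). The order of means was E76Q, E76K, E113K, E113Q, E71Q, WT and E71K, and only the step from E76Q to E76K passed the test. Wisp3, the sixth gene of the family and not among the 5, was listed at 0 to 0.458 TPM.

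The lysine form of a residue reverses its charge and the glutamine form removes it, and the comparison of both forms asks where they differ. At residue E71, 1 of the 5 members was called, against 25.1% of tested genes: Nov was higher in E71K than in E71Q by 1.30 (SE 0.28, limma adjusted p = 0.00338), a call lost in a fit of only those 6 libraries (adjusted p = 0.0507). Ctgf differed by 1.23 (adjusted p = 0.0551), Cyr61 by -0.52 (adjusted p = 0.588), Wisp1 by 0.38 and Wisp2 by -0.45 (adjusted p = 0.301 and 0.410). At residue E76, 3 of the 5 were called, against 31.9% of tested genes. Nov was higher in E76K than in E76Q by 5.65 (SE 0.28, adjusted p = 6.56e-11), while Ctgf and Wisp2 were lower, with differences of -1.52 (SE 0.45, adjusted p = 0.0159) and -1.11 (SE 0.38, adjusted p = 0.0357). The Ctgf call was lost without E76K replicate 3 (-0.93, adjusted p = 0.0915) and in a fit of only those 6 libraries (adjusted p = 0.0613). The Wisp2 call passed in 16 of the 21 fits that left out a library, and was lost with no filter on low values (adjusted p = 0.0539). Cyr61 differed by -1.58 (adjusted p = 0.0662) and Wisp1 by 0.05 (adjusted p = 0.909). With all libraries kept, Cyr61 was called there under median-ratio rescaling (-1.74, adjusted p = 0.0266) and quantile normalization (-1.72, adjusted p = 0.0279). It was also called with Mir6236 left out (-1.71, adjusted p = 0.0333) and in a fit of only those 6 libraries (adjusted p = 0.0205). Of the 21 fits that left out a library, 4 called it. At residue E113, 1 of the 5 was called, against 28% of tested genes: Cyr61 was higher in E113K than in E113Q by 1.96 (SE 0.63, adjusted p = 0.0288), in 16 of the 21 fits that left out a library, and not with no filter on low values (adjusted p = 0.0504). Nov differed there by -0.36 (adjusted p = 0.371), and by -0.76 without E113Q replicate 3 (adjusted p = 0.0233). Fitted without the libraries that stood apart, 3 of 5 members and 53.6% of tested genes were called at E71, 4 and 49.7% at E76, and 3 and 45% at E113. Cyr61 was then called at all 3 residues (-1.99 at E71, -1.996 at E76 and 2.59 at E113). The libraries left out held the highest Cyr61 of E71K, E76K and E113Q and the lowest of E71Q. That choice by itself widened the Cyr61 differences, at E71 from -0.52. In the same fit Ctgf differed by 1.52 at E71 (adjusted p = 2.22e-05) and by -0.72 at E113 (adjusted p = 0.0047). The libraries left out also held the lowest Ctgf of their groups, which bears on these values.

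Tested directly, the lysine-glutamine difference of Nov differed between all 3 pairs of residues. For residue E76 minus residue E71, where 2 of 5 members and 21.7% of tested genes were called, it was 4.35 (SE 0.40, limma adjusted p = 3e-07). For residue E113 minus residue E71, with 2 of 5 members and 32.7% of tested genes called, it was -1.66 (SE 0.40, adjusted p = 0.00431). For residue E113 minus residue E76, with 3 of 5 members and 29.5% of tested genes called, it was -6.01 (SE 0.40, adjusted p = 5.92e-09). These contrasts compare differences and not levels: the value for E113 minus E71 set -0.36 at E113 against 1.30 at E71. By the levels given above, Nov was high in E76K but not E76Q, in both forms of residue E113, and in neither form of residue E71. Ctgf was the other member called between E76 and E71, by -2.75, in all 21 fits that left out a library. The remaining calls were Cyr61 between E113 and E71 and between E113 and E76, and Wisp2 between E113 and E76. Without the 4 libraries that stood apart, 3 of 5 members were called in each of these contrasts, against 45.6%, 57.5% and 50% of tested genes. The added calls were Wisp2 between E76 and E71 (-1.09, adjusted p = 0.0118) and Ctgf between E113 and E71 (-2.23, adjusted p = 8.7e-06). That choice bears on both. The libraries left out held the lowest Ctgf of their groups, the lowest Wisp2 of E71K and E76K and the highest Wisp2 of E71Q.

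The share of each member in the summed CCN TPM does not depend on the scaling between libraries. In WT, Wisp1 was the largest part of the family, at 41.1% to 51.2% of a summed 198 ± 13.5 TPM (n = 3), and Nov made 15.6% to 18.6%. In E76K Nov made 84.0% to 90.9% of 1925 ± 723 TPM (n = 3), in E113Q 70.3% to 90.2% of 1170 ± 357 TPM (n = 3), and in E113K 67.6% to 69.5% of 1067 ± 43.4 TPM (n = 3). In E76Q, Cyr61 was the largest part at 47.1% to 51.6% of 532 ± 58.0 TPM (n = 3), followed by Wisp2 at 21.3% to 24.2%. The residue E71 mutants had no single make-up: Cyr61 made 20.2% to 64.7% in E71K and 29.6% to 67.7% in E71Q, and Ctgf 11.9% to 38.4% and 9.76% to 18.6%. Their sums were 283 ± 80.2 TPM (n = 3) and 250.3 ± 99.0 TPM (n = 3). Across the 21 libraries the members did not run together: Pearson's r between pairs lay between -0.46 for Nov with Ctgf and 0.39 for Wisp1 with Wisp2, as a description of libraries that share groups.

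**Figure D4:**
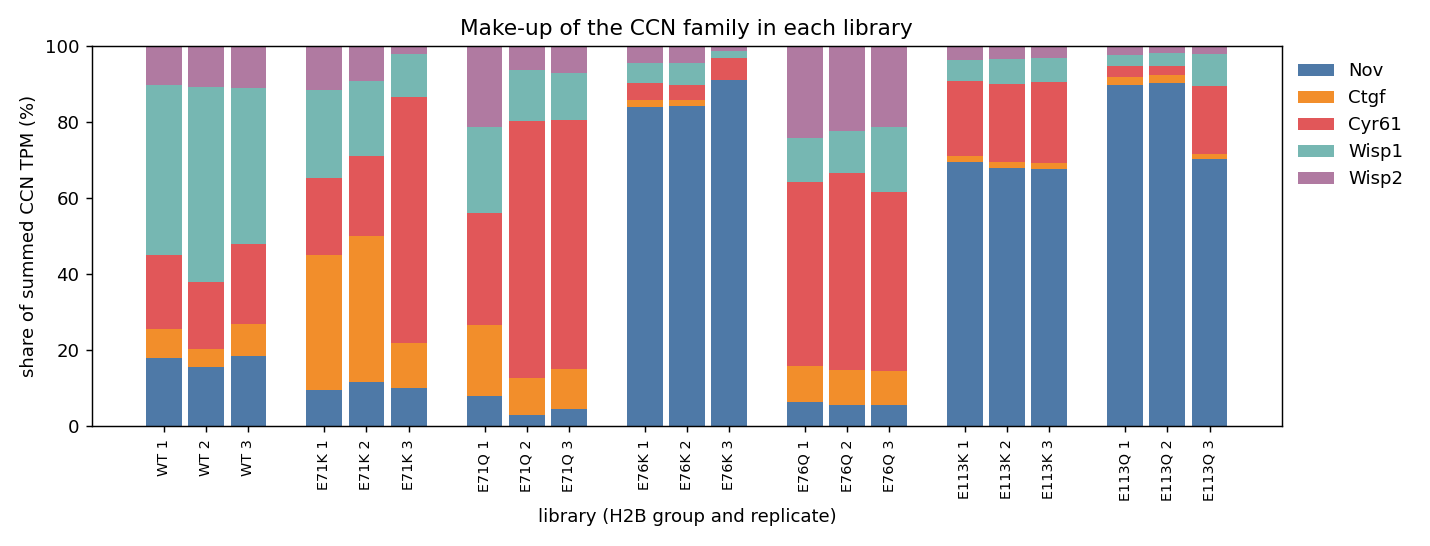
Share (%) of each CCN gene in the summed TPM of the 5 genes, 1 stacked bar for each of the 21 libraries, named by H2B group and replicate. Nov fills 67.6% to 90.9% of the bars of E76K, E113K and E113Q, Wisp1 is the largest part in WT, and Cyr61 in E76Q.

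The genes whose levels over the 21 libraries were most like each member were found among 9921 genes that averaged 5 TPM or more, by Pearson's r, as a description. Mgmt, a DNA repair enzyme that removes alkyl groups from guanine, was most like Nov (r = 0.98). Mgmt was listed at 0 to 0.472 TPM in the WT, E71K, E71Q and E76Q libraries, and stood at 20.1 to 27.9 TPM in E76K, 9.16 to 11.8 in E113K and 12.5 to 17.6 in E113Q. Sema3a, a secreted guidance cue, and Igsf10, a secreted immunoglobulin superfamily protein, followed (both r = 0.94). Sema3a measured 3.23 ± 0.222 TPM in WT (n = 3), 21.6 ± 0.735 in E76K, 38.9 ± 3.25 in E113K and 19.7 ± 7.89 in E113Q. For Cyr61 the closest were the splicing factors Srsf5 (r = 0.97) and Srsf6 (r = 0.94) and Zfp36 (r = 0.95), which promotes decay of AU-rich mRNAs and is itself an immediate early gene. Zfp36 measured 11.3 ± 0.980 TPM in WT (n = 3), 63.4 ± 5.49 in E76Q and 89.4 ± 0.590 in E113K. For Ctgf they were the kinase Syk (r = 0.88), Arhgap29 (r = 0.82), and the ATP-gated channel P2rx7 (r = 0.82). Likeness was lower for Wisp2, with Esm1 (r = 0.79), Gpx8 and Foxf2 (both r = 0.76), and for Wisp1, with Phf10 (r = 0.79), Ero1l (r = 0.78) and Vezf1 (r = 0.765).

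The nearest tested genes beside Nov on chromosome 15 did not all follow it. Tnfrsf11b (osteoprotegerin, a decoy receptor that limits bone resorption) starts 495 kb before Nov and rose in 6 of 6 mutants, E71K and E71Q included, by 1.26, 1.30, 2.61, 2.14, 2.68 and 2.82 on the log2 scale in E71K, E71Q, E76K, E76Q, E113K and E113Q. Its mean was 20.5 ± 0.437 TPM in WT (n = 3) and 158.5 ± 56.1 TPM in E113Q (n = 3). Colec10, a secreted lectin 335 kb before Nov, rose in 4 of 6 mutants, from 0.162 TPM in WT to between 2.495 and 8.54 TPM in E76K, E76Q, E113K and E113Q. Enpp2 (autotaxin), which starts 93.0 kb after Nov, fell by 2.39 in E71K and fell by 2.79 in E71Q, and was not called in the others. Its -1.72 in E113Q did not pass. Taf2, 269 kb after Nov, rose in 2 of 6. Beside Cyr61, Ddah1 (112 kb after it) rose in 6 of 6 mutants, whereas Odf2l rose in 1, Znhit6 fell in 1 and Bcl10 was called in none. Beside Ctgf, Enpp3 (178 kb after it) rose in 6 and Enpp1 in 4, whereas Stx7 rose in 1 and Slc18b1 rose in 1 and fell in 2. Beside Wisp1, Ndrg1 (37.9 kb after it) fell in 5, Phf20l1 fell in 2, and Efr3a and St3gal1 each rose in 2. Beside Wisp2, Pkig (163 kb before it) fell in 6 and Ada in 2, whereas Ywhab and Tomm34 were called in none. Of all tested genes, 3.65% rose in 6 of 6 mutants, 2.95% fell in 6 of 6, 6.18% fell in at least 5, 13.1% rose in at least 4 and 20.5% were called in none, in comparisons that share the WT libraries.

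**Figure D5:**
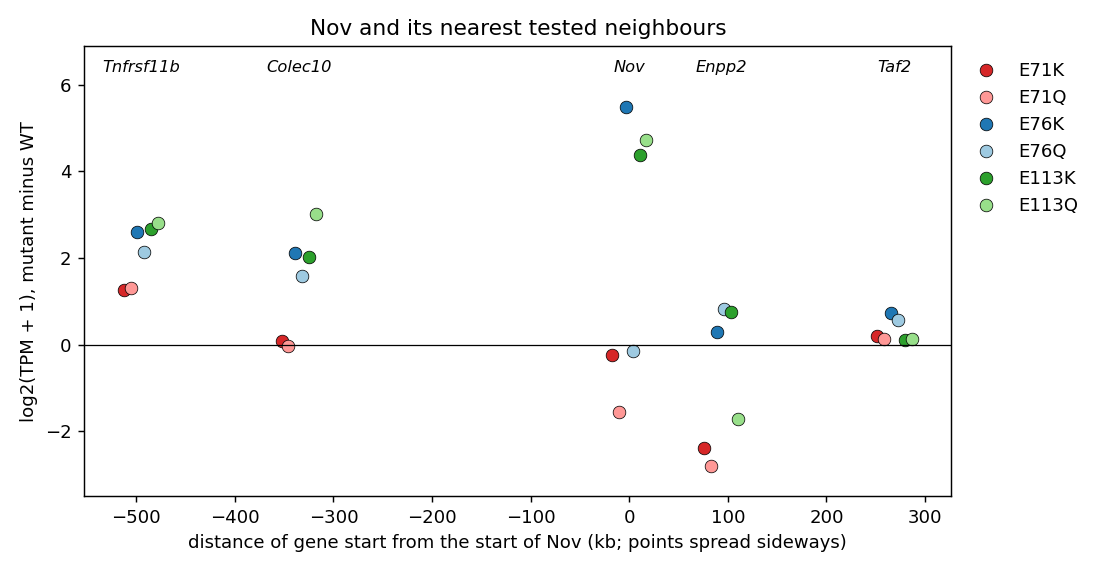
Difference from WT in log2(TPM + 1) of Nov and its nearest tested neighbours, against the distance of each gene's start from that of Nov in kb, coloured by mutant; points of a gene are spread sideways. Tnfrsf11b is higher in all 6 mutants, whereas Nov reaches 4.37 to 5.50 in E76K, E113K and E113Q and is lower in E71Q.

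Genes of the pathways that control or receive CCN proteins were counted in lists, each tested in the same fit, with medians read beside those of all tested genes (0 in E71K and E71Q, 0.16 in E76K, 0.02 in E76Q, 0.13 in E113K and 0.06 in E113Q). Of all tested genes, 12.5% rose and 14.2% fell in E71K, 20.7% and 23.5% in E71Q, 23.5% and 9.67% in E76K, 22% and 22.4% in E76Q, 30.3% and 20.7% in E113K, and 17.9% and 12.7% in E113Q. Of 22 YAP and TEAD targets outside the family, 6 rose and 3 fell in E71K, 6 and 5 in E71Q, 7 and 1 in E76K, 9 and 5 in E76Q, 14 and 4 in E113K, and 7 and 3 in E113Q. Their median was 0.78 in E113K and between -0.08 and 0.22 in the other mutants. The counts without the 4 libraries that stood apart were 7 and 10 in E71K, 8 and 7 in E71Q, 8 and 4 in E76K, 11 and 6 in E76Q, 17 and 4 in E113K, and 9 and 4 in E113Q. In that fit more of all tested genes were called in either direction: 40.5% in E71K, 59.4% in E71Q, 44% in E76K, 59.9% in E76Q, 64.6% in E113K and 44.4% in E113Q. The counts from that fit, here and in the lists below, are read beside these shares. The list did not move as one. The genes named from it are among those with the largest average size of change, not a choice of the best known targets. Ankrd1, a cardiac and stretch-induced repeat protein, fell in all 6 mutants from 30.6 ± 1.76 TPM in WT (n = 3). At the extremes it fell by 1.58 in E76Q and fell by 3.72 in E113Q. Tgfb2, a TGF-beta ligand, rose in all 6, from 1.70 ± 0.301 TPM in WT to 38.3 ± 1.92 in E76Q (n = 3), by 3.87. Dlc1 also rose in all 6, by 0.97 in E76K to 1.74 in E113K. Of 18 YAP and TEAD factors and Hippo kinases, 7 rose and 1 fell in E113K, and in the other mutants 3 rose in each and 1 to 6 fell. Without the 4 libraries 7 rose and 3 fell in E113K, 2 and 7 in E71K, and 5 and 4 in E113Q. Vgll3, a TEAD cofactor, rose in all 6, from 13.2 ± 1.10 TPM in WT to 48.6 ± 2.48 in E113K (n = 3).

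Of 22 SRF and MRTF factors and actin targets, 1 rose and 6 fell in E71K, 1 and 11 in E71Q, 7 and 3 in E76K, 3 and 6 in E76Q, 9 and 2 in E113K, and 3 and 3 in E113Q. The largest shift without the 4 libraries was in E76Q, to 7 and 9. Myl9, a myosin light chain, fell in all 6 mutants from 107 ± 2.51 TPM in WT (n = 3) to at most 3.51 TPM. Acta2, smooth muscle actin, rose in 5 mutants, by 2.39 to 525 ± 51.9 TPM in E76Q (n = 3), and fell by 0.41 in E71Q. Of 20 TGF-beta ligands, receptors and targets, 5 rose and 5 fell in E71K, 6 and 5 in E71Q, 6 and 1 in E76K, 6 and 4 in E76Q, 11 and 2 in E113K, and 3 and 5 in E113Q. The counts without the 4 libraries were 8 and 7 in E71K, 12 and 5 in E76K, 10 and 5 in E76Q and 6 and 6 in E113Q. Fn1, fibronectin, which is both such a target and a CCN binding partner, rose in all 6 mutants, by 1.35 in E76K to 3.00 in E76Q, from 294 ± 4.73 TPM in WT (n = 3).

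Of 11 tested Wnt feedback and target genes, 5 rose and 2 fell in E71K, 6 and 3 in E71Q, 3 and 1 in E76K, 5 and 4 in E76Q, 5 and 2 in E113K, and 4 and 1 in E113Q. Apcdd1, a Wnt inhibitor, fell in all 6 from 41.8 ± 1.85 TPM in WT (n = 3), and Znrf3, which removes Wnt receptors, rose in all 6 from 0.510 TPM. Tcf7, a Wnt effector, rose in E71Q to 220.5 ± 54.8 TPM (n = 3), by 4.52, and fell by 3.21 in E76Q. Of 16 tested CCN receptors and binding partners, 6 rose and 3 fell in E71K, 9 and 1 in E71Q, 6 and 4 in E76K, 7 and 3 in E76Q, 9 and 2 in E113K, and 5 and 3 in E113Q. The counts without the 4 libraries were 5 and 6 in E71K, 15 and 1 in E71Q, 10 and 3 in E76Q and 8 and 3 in E113Q. Itgb3, the beta chain of the vitronectin receptor that binds CCN proteins, rose in E71K, E71Q, E76Q and E113Q, by 2.09, 3.07, 1.69 and 1.56. It was 6.24 ± 0.128 TPM in WT (n = 3). Vegfa, an angiogenic factor bound by Ctgf, fell in all 6. At the extremes it fell by 0.48 in E113K and fell by 2.14 in E71Q.

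Of 21 tested immediate early genes, 12 rose and 3 fell in E113K, 9 and 4 in E71Q, 7 and 5 in E76Q, 5 and 3 in E71K, 4 and 1 in E113Q, and 2 and 3 in E76K. The counts without the 4 libraries were 16 and 3 in E113K, 14 and 5 in E71Q, 11 and 6 in E76Q, 7 and 6 in E71K, 12 and 5 in E113Q, and 5 and 9 in E76K. Fos, a subunit of the AP-1 factor, rose in E71Q, E76Q and E113K, by 4.32, 4.39 and 3.98. Fosl1, another AP-1 subunit, fell in 5 of the mutants, from 25.2 ± 2.53 TPM in WT (n = 3). Of the 16 dividing cell markers none rose in any mutant, and 2 fell in E71K, 15 in E71Q, 5 in E76K, 13 in E76Q, 16 in E113K and 6 in E113Q. Left without the 4 libraries that stood apart, 3 of these markers rose and 3 fell in E71K, 3 and 8 in E76K, and 5 and 7 in E113Q, where 40.5%, 44% and 44.4% of tested genes were called. Of 13 tested cartilage genes, 8 rose in E71K, 11 in E71Q, 10 in E76Q, 5 in E113Q, 1 in E76K and 1 in E113K, and 1 fell in each of E76K, E113K and E113Q. Without the 4 libraries, 10 rose and 1 fell in E71K, 13 and 0 in E71Q, 5 and 3 in E76K, 12 and 0 in E76Q, 5 and 4 in E113K, and 8 and 1 in E113Q. Of 9 tested bone-forming genes 2 to 4 rose and 1 to 3 fell in each mutant, and of 6 tested fat cell genes 1 to 4 rose and 0 to 2 fell. Pparg, the master regulator of fat cells, rose in E71Q, E76K, E113K and E113Q and fell in E71K and E76Q, against 20.4 ± 1.37 TPM in WT (n = 3). Whether these lists bear on the CCN levels was not tested.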

How the data were processed

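RNA was taken with RNeasy columns and libraries were made with an NEBNext Ultra II kit, per the labels. The authors deposited TPM values per gene and library; the submitters' processing notes name Salmon, featureCounts 1.4.4, DESeq and mm10, without saying which made the TPM. Poly(A) selection and strand are not given in the sources used here. The authors' mean of each group was not used. TPM as deposited was analysed as log2(TPM + 1) with limma 3.58.1 (R 4.3.3), with 1 trend-moderated fit over 21 libraries and 7 groups on the 12192 genes averaging 1 TPM or more (14 residual degrees of freedom). Benjamini-Hochberg adjustment ran within each comparison, at 0.05. Fold changes of low genes are understated on this scale. The scripts were tested on simulated data. Named are all 5 members, for each the 3 genes most like it and the 2 nearest tested genes on each side, and at most 4 genes per list. The members, lists and tests were chosen with earlier results of these data known. Positions and the promoter come from RefSeq (GRCm38.p6). Counts were not used here. Replicate numbers were not used as pairs: the labels tie them to no batch. Same-numbered libraries deviated together (all 3 correlations above 0.1) only for E71K with E76K. These groups are compared in the order of levels, and both enter the reported interaction of E76 minus E71. Alternatives were other pseudocounts (0.1, 5), filters, scalings, moderation and sets of libraries. List counts without the 4 libraries that stood apart were added after seeing the data. P-values measure the spread between these libraries.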

Additional observations from a re-analysis of the deposited data

Results flagged for a closer look

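The lysine-glutamine difference, tested as an interaction in limma over all 21 libraries, differed between residues for 4 members. For Nov it was larger at E76 than at E71 by 4.35 (adjusted p = 3e-07), smaller at E113 than at E71, a value of -1.66 (adjusted p = 0.00431), and smaller at E113 than at E76, a value of -6.01 (adjusted p = 5.92e-09). For Ctgf the value for E76 minus E71 was -2.75 (SE 0.64, adjusted p = 0.00453). For Cyr61, E113 minus E71 gave 2.47 (SE 0.90, adjusted p = 0.0431), which passed in 4 of the 21 fits that left out a library and failed with no filter (adjusted p = 0.0711) or robust moderation (adjusted p = 0.0637), and E113 minus E76 gave 3.54 (SE 0.90, adjusted p = 0.00651). For Wisp2, E113 minus E76 gave 1.67 (SE 0.54, adjusted p = 0.0272), which passed in 15 of 21. Without the 4 libraries that stood apart, Cyr61 gave 4.58 and 4.59 for its pair of contrasts and Wisp2 gave 1.12. The Cyr61 values were widened by that choice, which left out the highest Cyr61 library of E71K, E76K and E113Q and the lowest of E71Q.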

How the results depend on the processing

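For the 5 members, 662 of 705 values under another setting stayed on the same side of the threshold, 10 lost a call and 33 gained one. With 1 library left out, 1185 of 1260 values stayed on the same side, 56 lost a call and 19 gained one. No called member value changed sign, while small differences that were not called could. The count of members called in E71K against E71Q, 1 as reported, became 2 with pseudocount 5, median-ratio rescaling, quantile normalization, Mir6236 left out or the replicate block, 3 without the 4 libraries that stood apart, and 0 in a fit of only the 6 libraries compared. In E113K against E113Q it went from 1 to 0 with no filter on low values and to 3 without the 4 libraries. Between E113 and E71, the interaction count went from 2 to 1 with no filter or with robust moderation. Without the 4 libraries the counts against WT went from 2 to 4 in E71K, E76K and E113K. With only 6 libraries they were 1 in E71K and 4 in E113K. Leaving out 1 library gave 1 to 2 members in E71K, E76K and E113Q against WT and in E71K against E71Q, 0 to 2 in E113K against E113Q, and 1 to 3 in the E113 and E71 interaction. Counts that moved by a smaller proportion are not listed, and they were not all stable. Cyr61 in E71Q against WT passed in 6 of the 21 fits that left out a library. Wisp2 passed in 16 in E76K against E76Q and in 15 in the E113 minus E76 interaction. Of all tested genes, 3250 were called in E71K against WT, and 5135 with median-ratio rescaling, 5076 with quantile normalization, 5238 with Mir6236 left out, 4939 without the 4 libraries and 1442 with only 6 libraries. That last setting called 6136 in E76K (4044 as reported) and 8276 in E76Q (5403 as reported). Rescaling moved the share of called genes that were higher from 70.8% to 53.1% in E76K and from 73.5% to 49.5% in E76K against E76Q (median-ratio), and from 46.9% to 65.7% in E71K (Mir6236 left out). Without the 4 libraries, Postn in E71K became -0.40 and Zfp36 in E71K -0.53, and Enpp2 in E76K became -0.65, each reversed. The cause was not tested. Replicate numbers were not shown to pair samples: the 63 same-number pairs had correlations of -0.17 to 0.42, 13 of them above 0.1, and all 3 were above it only for E71K with E76K. The replicate block called Ctgf in E71Q (adjusted p = 0.0354), Wisp2 in E113K (adjusted p = 0.0474), Ctgf in E71K against E71Q (adjusted p = 0.0310) and Cyr61 in E76K against E76Q (adjusted p = 0.0279) in addition. TPM keeps no depth, so what depth limits is unknown.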
